A study of Oryza sativa with 12 samples.

Results

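*OsHOX24* (LOC_Os02g43330; HOX24 or OsHox24 in RefSeq, on chromosome 2) encodes a homeodomain leucine zipper (HD-Zip) transcription factor of class I in rice. It was followed here through the 1 probe that carries its locus, CUST_21497_Rice4x44kGene, out of 42477 probes on a rice microarray. HD-Zip factors are found in plants. Their homeodomain contacts DNA and the adjoining leucine zipper joins a pair of proteins, so that they bind as dimers. Many class I members respond to water deficit and to the stress hormone abscisic acid (ABA), and *OsHOX24* is known in rice as a gene induced by salinity, drought and ABA.

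The arrays compared shoots of *OsERF106MZ*-overexpressing rice (OE) with shoots of their untransformed parent, the japonica cultivar Tainung 67 (TNG67). There were 4 groups of 3 arrays each, OE at 150 mM NaCl, TNG67 at 150 mM NaCl, OE at 0 mM NaCl and TNG67 at 0 mM NaCl. Seedlings of both genotypes were grown for 7 days and kept for 24 h with or without NaCl, so all were 8 days old at harvest. OE plants carry *OsERF106MZ*, an ethylene-responsive factor gene called OsERF106 in the labels, under the 35S promoter, which is active in most plant cells. The labels do not name the transgenic line that was hybridised. The labels speak of 3 biological repeats without naming separate plants or cultures, so the p-values measure the spread between these arrays only. The column names of the study's gene list number 2 of the 3 arrays of each group as 1 sample, likely replicates 1 and 3, which share a slide, and if so each group holds 2 samples in place of 3. None of the 4 shoot markers and 3 root markers on the lists used could be tied to a probe, so the tissue was not checked. In whole shoots, a change in the share of cells that express a gene and a change in RNA per cell cannot be told apart.

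Replicates 1 and 3 of TNG67 lay on slide 1, replicates 1 and 3 of OE on slide 2, and replicate 2 of all groups on slide 3, which was scanned in another session. Each NaCl response can therefore be read within a slide, whereas the genotypes lay side by side on slide 3 alone. Median spot signals ran from 315.5 to 814.5 units among the arrays, over local backgrounds of 44 to 50 units, and the number of arrays limits the precision. Arrays of a group correlated least where replicate 2 was involved, with a lowest r of 0.965 across probes, between replicates 1 and 2 of TNG67 at 150 mM NaCl.

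*OsHOX24* was bright in every NaCl-treated shoot sample and dim in the others. The scanner's processed signal, the spot signal after all of the software's own corrections, was 5436, 7466 and 4557 units in replicates 1, 2 and 3 of OE at 150 mM NaCl. It was 937, 10362 and 971 units in TNG67 at 150 mM NaCl. In OE at 0 mM NaCl it was 26.4, 251 and 91.7 units, and in TNG67 at 0 mM NaCl it was 11.1, 51.8 and 12.02 units. The lowest NaCl-treated sample was thus above the highest sample without NaCl. Replicate 2 of TNG67 at 150 mM NaCl, on slide 3, had the highest of all 12 signals, while the other two arrays of its group had the lowest of the NaCl-treated samples.

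The scanner's own error on these signals reached 22.9% of the value and was larger for the dim spots. The probe has 1 spot on each array, none of them an outlier or saturated. It was well above background on 11 of 12 arrays, the exception being replicate 3 of TNG67 at 0 mM NaCl. The median spot signal was 1.87 to 247 times the local background over the 12 arrays.

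After background correction and quantile normalization, the log2 levels were 12.80, 12.32 and 12.62 in OE at 150 mM NaCl and 10.33, 12.69 and 10.29 in TNG67 at 150 mM NaCl. They were 5.88, 7.75 and 7.58 in OE at 0 mM NaCl and 4.997, 5.52 and 4.87 in TNG67 at 0 mM NaCl. The means were 12.58 ± 0.24 in OE and 11.10 ± 1.38 in TNG67 at 150 mM NaCl, and 7.07 ± 1.03 in OE and 5.13 ± 0.34 in TNG67 at 0 mM NaCl (SD, n = 3 each). The levels therefore ran from OE with NaCl, through TNG67 with NaCl and OE without it, to TNG67 without it. Between neighbours in this order, the step between the NaCl-treated TNG67 shoots and the untreated OE shoots passed the test, whereas the steps between genotypes at 150 mM and at 0 mM NaCl did not.

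**Figure D1:**
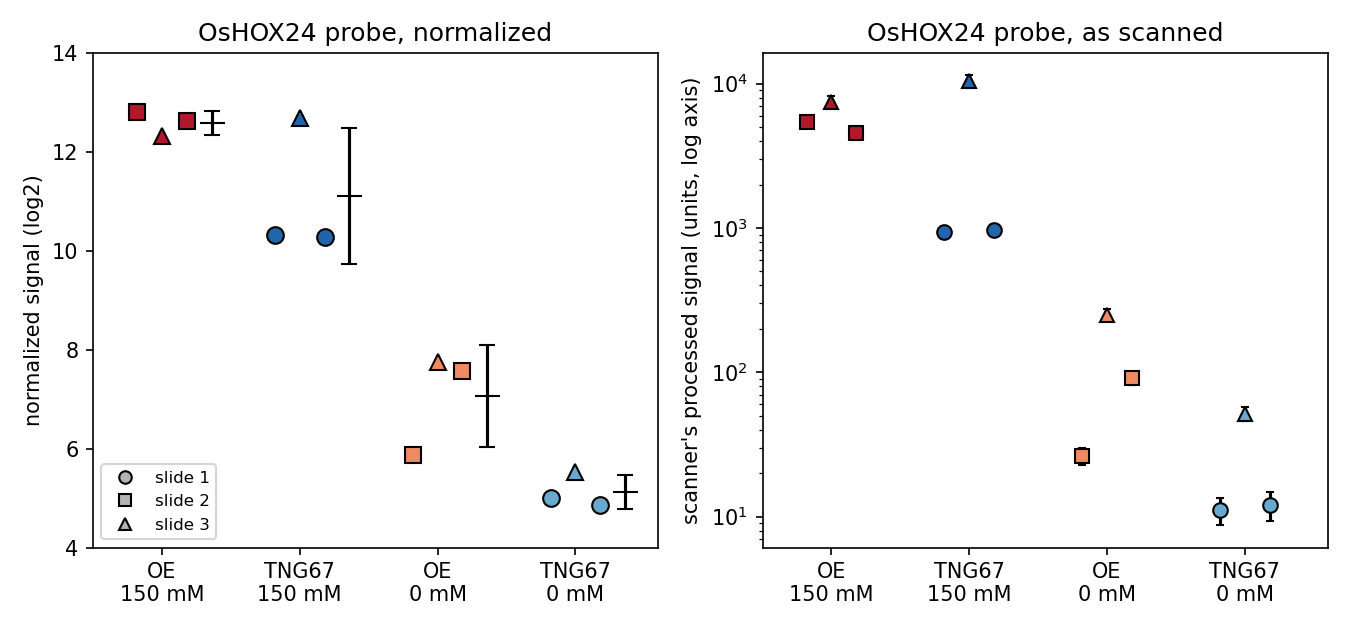
Signal of the *OsHOX24* probe in the 12 arrays, by group on the horizontal axis, as normalized log2 signal (left) and as the scanner's processed signal on a log axis (right). Symbols give the slide, bars on the left are the group mean ± SD (n = 3) and bars on the right the scanner's error. The NaCl-treated samples sit above 10 on the log2 scale and the others below 8, and the slide 3 array of TNG67 at 150 mM NaCl, at 12.69, stands with the OE arrays.

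The spread within groups was uneven. The SD of *OsHOX24* was 1.38 among TNG67 arrays at 150 mM NaCl and 1.03 among OE arrays at 0 mM NaCl, where 98.6% and 98.3% of the tested probes had smaller SDs. In OE at 150 mM NaCl and TNG67 at 0 mM NaCl the SDs of 0.24 and 0.34 were larger than those of 57.5% and 75.1% of the probes. In TNG67 at 150 mM NaCl, replicate 2 stood 2.38 log2 units above the mean of replicates 1 and 3. In OE at 0 mM NaCl it was replicate 1, on the same slide as replicate 3, that stood apart, with a difference of −1.78 log2 units from the mean of the other two.

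Other NaCl-induced probes also read high in the first of these arrays. Of 2294 probes that rose with NaCl on the OE arrays, 78.8% read higher in replicate 2 of TNG67 at 150 mM NaCl than in the mean of replicates 1 and 3, by a median of 0.57 log2 units. Among 37133 tested probes the share was 47.3% and the median difference −0.04. The gap of *OsHOX24* was larger than that of 99.2% of them. In replicate 1 of OE at 0 mM NaCl, 44.9% of 1841 probes that rose with NaCl on the TNG67 arrays read higher than in its group mates (median difference −0.04), against 54.6% of all tested probes (median 0.03). The other slide 3 arrays leaned low in OE and high in TNG67, over different sets of probes. The OE arrays were again read over the probes that rose with NaCl on the TNG67 arrays. In replicate 2 of OE at 150 mM NaCl the share was 31.1% of the NaCl-induced probes, against 45.9% of all tested probes, and in replicate 2 of OE at 0 mM NaCl it was 37.7%, against 45.8%, although *OsHOX24* itself stood 1.02 log2 units above its group mates there. In replicate 2 of TNG67 at 0 mM NaCl the share was 60.9% of 2295 probes that rose with NaCl on the OE arrays, against 45.4% of all tested probes. Slide, scan session and replicate 2 cannot be told apart in this design.

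The first question is how far salinity raised *OsHOX24* in each genotype. NaCl raised it by 5.51 ± 0.63 log2 units in OE (SE, 95% confidence interval 4.12 to 6.90; adjusted p = 0.000315 by limma), which is a 45.6-fold difference with an interval of 17.4 to 120-fold. In TNG67 it rose by 5.97 ± 0.63 log2 units (SE, interval 4.58 to 7.36; adjusted p = 0.00029 by limma), or 62.7-fold with an interval of 23.9 to 165-fold. The size of the TNG67 response is uncertain beyond this interval's error, since 1 of its 3 arrays at 0 mM NaCl was not well above background, and it was 4.72 log2 units with an offset of 50 and 6.79 with 75th-percentile scaling. With replicates 1 and 3 averaged into 1 sample, the adjusted p by limma was 0.0321 in OE and 0.0226 in TNG67, and both still passed. To pass, a probe needed an adjusted p (Benjamini-Hochberg, over all 37144 tested probes) under 0.05 and a difference of more than 1 log2 unit. Of the tested probes, 6.18% passed as higher with NaCl in OE and 4.96% in TNG67. The arrays of the NaCl conditions did not overlap in either genotype, and all NaCl-treated arrays were likewise the higher ones for 21.7% of the tested probes in OE and 19.5% in TNG67. By size, *OsHOX24* had the 22nd highest response of all tested probes in OE and the 24th highest in TNG67, by the main setting.

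Read within slides, the NaCl response of OE was 6.92, 4.57 and 5.04 log2 units in replicates 1, 2 and 3. That of TNG67 was 5.33, 7.17 and 5.41 log2 units. All 6 pairs moved the same way, and the smallest of them, on slide 3 in OE, was a 23.7-fold difference. On slide 3 the TNG67 response was the larger of the genotypes, and the reverse held for replicate 1.

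The interaction asks whether the response differed between genotypes. It was −0.46 ± 0.89 log2 units, the response of OE less that of TNG67 (SE, interval −2.43 to 1.51; adjusted p = 0.967 by limma). The 3 same-numbered sets of arrays gave 1.59, −2.60 and −0.37, so that their directions disagreed. On the linear scale the interval runs from 0.186-fold to 2.84-fold, so that a difference of several-fold in either direction lies within it. For comparison, 0.0942% of the tested probes passed this comparison in either direction. Its sign turned to 0.28 with a normexp offset of 50 and to 0.33 without replicate 2 of TNG67 at 150 mM NaCl.

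The next question is whether overexpression alone moved *OsHOX24*. At 0 mM NaCl the OE level was 1.94 ± 0.63 log2 units above that of TNG67 (SE, interval 0.55 to 3.33; 3.83-fold), and with an adjusted p of 0.0825 by limma the difference did not pass. Of the tested probes, 2.06% passed as higher in OE. The arrays did not overlap, the lowest OE value being 5.88 and the highest TNG67 value 5.52, as was so in this direction for 16.5% of all tested probes. The differences of same-numbered arrays were 0.88, 2.23 and 2.71, and the one taken within a slide was 2.23, or 4.68-fold.

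This comparison lay close to the threshold and changed sides between fits. When the replicate number entered as a block, the same difference had an adjusted p of 0.0473 by limma and passed. It also passed by limma without replicate 2 of TNG67 at 150 mM NaCl (1.94, adjusted p = 0.016) and without replicate 1 of OE at 0 mM NaCl (2.53, adjusted p = 0.0499). The first of these arrays is in neither group compared, so the difference itself stayed at 1.94. The fit shares the same estimate of the spread among all groups, and without that array the SE fell from 0.63 to 0.42. It did not pass with the slide as a fixed block (1.16, adjusted p = 0.423 by limma) or as a random block (1.47, adjusted p = 0.199). Nor did it pass with replicates 1 and 3 averaged (2.01, adjusted p = 0.382 by limma) or by the methods' t-test (1.94, adjusted p = 0.172). The genotypes shared only slide 3, so the fixed-block value draws also on the 150 mM arrays there. Adjusted p ran from 0.016 to 0.423 over the alternatives. The TNG67 signals at 0 mM NaCl were near the background, and the size of the difference moved with the background correction and scaling, being 1.17 with an offset of 50 and 2.44 in the authors' normalized values.

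At 150 mM NaCl the OE mean was 1.48 ± 0.63 log2 units above the TNG67 mean (SE, interval 0.09 to 2.87; 2.78-fold; adjusted p = 0.198 by limma), which did not pass. With slide as a fixed block it was 0.70 (adjusted p = 0.639), with slide as a random block 1.01 (0.402), and with replicates 1 and 3 averaged 1.01 (0.791). The fixed-block value draws also on the 0 mM arrays of slide 3, the only slide that the genotypes shared. In this comparison 1.93% of the tested probes passed as higher in OE. The arrays overlapped, because replicate 2 of TNG67, at 12.69, read above OE replicates 2 and 3. The same-numbered differences were 2.47 and 2.33 between slides 2 and 1, for replicates 1 and 3, and −0.37 within slide 3. Without replicate 2 of TNG67 at 150 mM NaCl the difference was 2.27 and passed (adjusted p = 0.0125 by limma). The TNG67 arrays left at 150 mM NaCl then lay on slide 1 alone, which holds no OE array, and they may be the same sample. On slides 1 and 2 alone, a setting chosen after seeing the data, it was 2.40 (adjusted p = 0.00994), but there each genotype lay on a slide of its own and slide and genotype cannot be told apart.

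TNG67 at 150 mM NaCl was also set against OE at 0 mM NaCl, to place the level of the NaCl-treated parent beside that of untreated OE shoots. *OsHOX24* was 4.03 ± 0.63 log2 units higher in NaCl-treated TNG67 shoots (SE, interval 2.64 to 5.42; 16.4-fold; adjusted p = 0.00153 by limma), the 18th highest of all tested probes. Of these, 4.46% passed as higher. The arrays did not overlap, as in this direction for 19.3% of the probes, and the same-numbered differences were 4.45, 4.94 and 2.71. The *OsHOX24* level in untreated OE shoots thus stayed well below that of NaCl-treated TNG67 shoots.

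**Figure D2:**
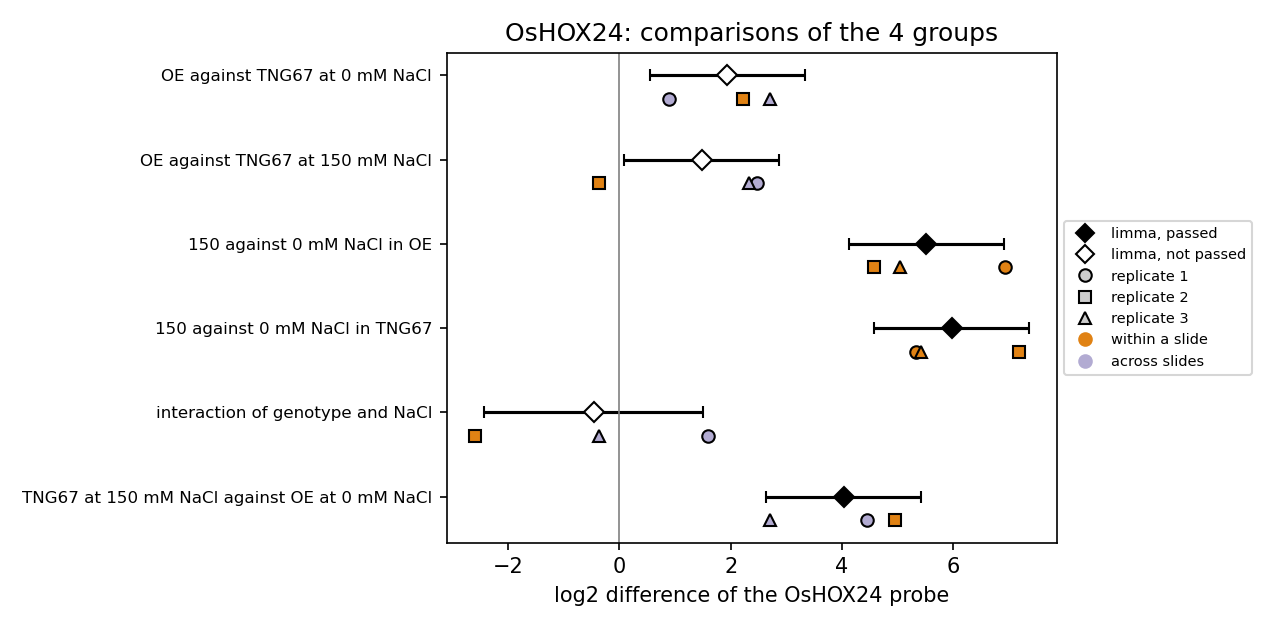
Log2 differences of the *OsHOX24* probe in 6 comparisons. Diamonds are limma estimates with 95% confidence intervals, filled where the probe passed, and the symbols beneath are the differences of same-numbered arrays, orange within a slide and violet across slides. Both NaCl responses lie above 4, the genotype differences at 150 and 0 mM NaCl are 1.48 and 1.94 with open diamonds, and slide 3 gives −0.37 at 150 mM NaCl.

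*OsHOX24* shared its pattern across the arrays with many NaCl-responsive probes. Over the 12 arrays, 577 of 37084 probes with complete values correlated with it at r above 0.95, and 1758 at r above 0.9. These arrays share slides and the same NaCl contrast, so r largely follows the step between NaCl conditions and is given as a description. The 10 most alike probes had r of 0.991 to 0.997 and Spearman's rho of 0.923 to 0.972. Their deviations from the group means also went with those of *OsHOX24*, with r of 0.824 to 0.965.

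These 10 probes were picked for likeness to *OsHOX24* on these same arrays, so their calls largely follow from that choice and are descriptions only. All 10 passed as higher with NaCl in both genotypes, by a median of 3.77 log2 units in OE and 3.76 in TNG67, against medians of −0.06 and −0.02 over all tested probes. At 0 mM NaCl 4 of the 10 passed as higher in OE, against 2.06% of all tested probes. At 150 mM NaCl none of the 10 did by limma, against 1.93%, and 7 of them had an unadjusted p under 0.05, against 22.4% of all tested probes in either direction. The probe most like *OsHOX24* was CUST_39004_Rice4x44kGene, for which no locus was at hand (r = 0.997). Among the 10, the probes with a locus were those of LOC_Os01g11600 (r = 0.993), *OsDHN1* (LOC_Os02g44870, r = 0.992) and LOC_Os01g63060 (r = 0.992). *OsDHN1* encodes a dehydrin, a hydrophilic protein that accumulates in drying or salt-stressed cells.

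*OsDHN1* shows how closely the arrays went together. Its log2 levels were 17.22, 17.20 and 17.42 in OE at 150 mM NaCl and 15.07, 17.05 and 15.09 in TNG67 at 150 mM NaCl. They were 12.73, 13.77 and 13.76 in OE at 0 mM NaCl and 11.90, 12.76 and 11.96 in TNG67 at 0 mM NaCl. As with *OsHOX24*, replicate 2 of NaCl-treated TNG67 was high and replicate 1 of untreated OE was low within its group. Levels of different probes are not compared here.

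**Figure D3:**
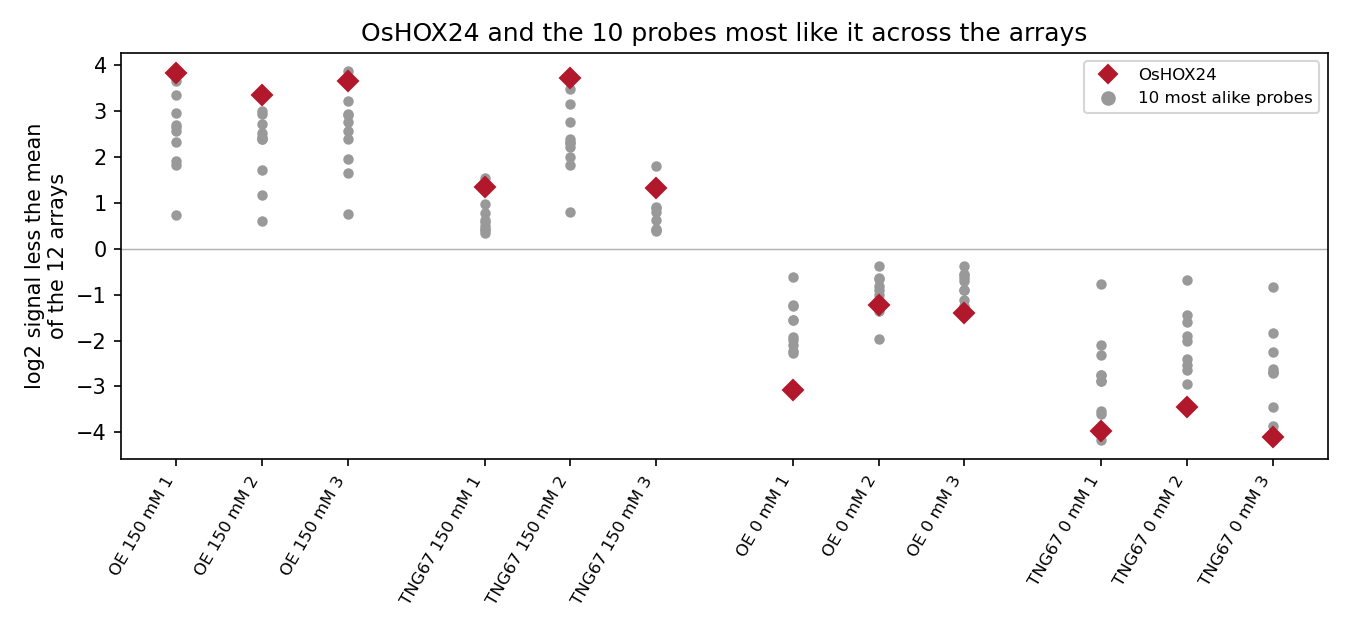
Log2 signal of *OsHOX24* (diamonds) and of the 10 probes most like it (grey points) in each array, each less its mean over the 12 arrays, with arrays along the horizontal axis by group and replicate number. All 11 probes stand above their mean in the NaCl-treated samples and below it in the others, and replicate 2 of TNG67 at 150 mM NaCl is higher than its group mates.

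Of the probes with a locus, those that ran most opposite to *OsHOX24* were LOC_Os01g70970 (r = −0.960), LOC_Os03g19990 (r = −0.944) and LOC_Os01g04920 (r = −0.941). All 3 fell with NaCl in both genotypes, with log2 changes of −2.06, −2.46 and −2.16 in OE and −2.96, −3.22 and −1.18 in TNG67. Of all tested probes, 3.64% passed as lower with NaCl in OE and 3.97% in TNG67.

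*OsHOX24* was the only one of 14 listed HD-Zip class I genes that could be tied to a probe. Loci were at hand for 1182 probes, which the study had chosen as differing between genotypes on these same samples, on chromosomes 1 to 5. *OsHOX24* itself has its locus from that list. The directions of the genes below, and the genotype differences of *OsHOX24*, are therefore not independent evidence. Outside the arrays, the study reported *OsHOX24* mRNA by qPCR as higher in OE than in TNG67 shoots under both NaCl conditions. That RNA came from the same shoots as the array RNA. On the lists of salinity, ABA and osmotic stress genes, 12 genes could be placed. With NaCl, 10 of the 12 rose in OE and 8 of the 12 in TNG67, and none fell by limma, also at an unadjusted p under 0.05 (0 of 12 lower in each genotype). Over all tested probes, 6.18% rose in OE and 4.96% in TNG67, while 19.4% and 18.4% were lower at an unadjusted p under 0.05. Their median responses were 3.29 log2 units in OE and 2.62 in TNG67. In the interaction none of the 12 passed by limma, and 1 had an unadjusted p under 0.05. These counts are near the shares over all tested probes, of which 0.0942% passed and 8.53% had an unadjusted p under 0.05.

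Among LEA proteins and dehydrins, which protect other proteins and membranes during water loss, 3 of 8 listed genes were placed and all 3 rose with NaCl in both genotypes. *OsDHN1* rose by 3.86 ± 0.50 log2 units in OE and 3.53 ± 0.50 in TNG67. LOC_Os03g20680, a LEA gene, rose by 3.87 ± 0.88 and 3.36 ± 0.88. LOC_Os01g50910, a group 3 LEA gene, rose by 3.87 ± 1.07 in OE (SE throughout). Only 1 of its 3 TNG67 arrays at 0 mM NaCl was well above background, so differences against that group have no firm size. It passed as higher with NaCl in TNG67 (fitted difference 6.22) and, alone among the 3, as higher in OE at 0 mM NaCl (fitted difference 3.87, adjusted p = 0.048 by limma).

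Of the ABA genes, 3 of 13 were placed and all 3 rose with NaCl in both genotypes. *OsABI5*, a bZIP factor of ABA signalling, rose by 2.73 ± 0.49 log2 units in OE and 1.89 ± 0.49 in TNG67. *OsSAPK1*, a protein kinase of the SnRK2 family, rose by 1.82 ± 0.33 and 1.74 ± 0.33. *OsPP2C30* (LOC_Os03g16170), a PP2C-type protein phosphatase, rose by 4.58 ± 0.64 and 3.75 ± 0.64. *OsABI5* and *OsSAPK1* were also higher in OE at both NaCl concentrations, by 2.82 and 1.35 log2 units at 150 mM and by 1.98 and 1.27 at 0 mM, while *OsPP2C30* differed by 1.24 at 150 mM and 0.41 at 0 mM and did not pass.

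Of the stress regulators, 4 of 11 were placed. *OsSRO1c*, a regulator of stress and reactive oxygen responses, rose with NaCl by 4.48 ± 0.61 log2 units in OE and 4.64 ± 0.61 in TNG67, and its genotype differences of 2.03 at 150 mM and 2.19 at 0 mM (adjusted p = 0.0507 by limma) did not pass. *OsZFP182*, a zinc finger factor, rose by 3.85 ± 0.44 and 3.58 ± 0.44 and was higher in OE at 150 mM NaCl, by 1.73. *OsMAIF1*, an F-box protein gene, rose in OE by 1.90 ± 0.48, against 1.36 ± 0.48 in TNG67, which did not pass, and was well above background on 8 of 12 arrays. *OsNAC006* differed from the rest: with NaCl it moved by −0.11 in OE and 0.03 in TNG67, neither passing, and it was lower in OE at both concentrations (log2 difference −1.25 at 150 mM and −1.11 at 0 mM NaCl). Of all tested probes, 1.42% passed as lower in OE at 150 mM and 2.3% at 0 mM NaCl.

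Of the osmoprotectant and ion genes, 2 of 7 were placed. *OsHKT1;1*, a sodium transporter gene, rose with NaCl in OE by 1.03 ± 0.25 log2 units, against 0.92 ± 0.25 in TNG67, which fell short of the fold threshold (adjusted p = 0.0246 by limma). A galactinol synthase gene, LOC_Os03g20120, had NaCl responses of −0.06 in OE and 0.84 in TNG67, neither passing, and was lower in OE at 150 mM NaCl (log2 difference −1.14). In OE, none of the 12 genes had a larger fitted NaCl response than *OsHOX24*, a difference between genes that was not tested. In TNG67, LOC_Os01g50910 had a larger one (6.22 against 5.97), and for both genes the TNG67 signals at 0 mM NaCl were near background.

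**Figure D4:**
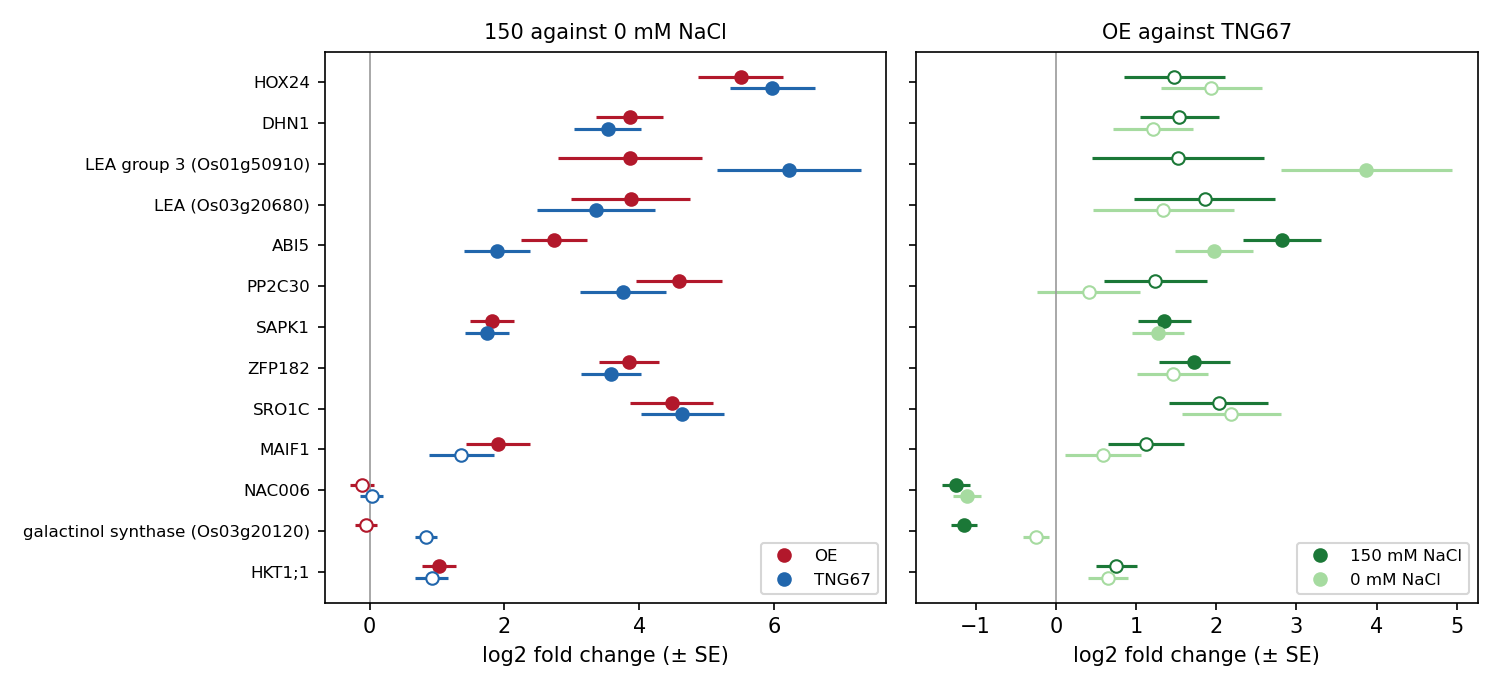
Log2 fold changes (± SE) of *OsHOX24*, named HOX24 on the top row, and the 12 placed genes of the lists, with 150 against 0 mM NaCl in OE (red) and TNG67 (blue) on the left, and OE against TNG67 at 150 mM (dark green) and 0 mM NaCl (light green) on the right. Filled points passed. *OsHOX24* has the largest NaCl response in OE, at 5.51, but not in TNG67, and its genotype differences of 1.48 and 1.94 are open points.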

How the data were processed

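The authors deposited an Agilent scanner file for each array, and normalized log2 values. In the scanner files, Feature Extraction 10.7.1.1 (per the submitters' processing notes) gives spot and local background signals as an intensity with flags. The normalized values equal the log2 of the processed signals minus an array constant and each probe's median. The median signal was background-corrected with limma 3.58.1 (normexp, offset 0), 1417 control spots were dropped, outlier spots were treated as missing, arrays were quantile-normalized and spots of a probe averaged. The test covered the 37144 probes that stood well above background on 3 or more of the 12 arrays, in one fit of 4 group means (lmFit, eBayes; R 4.3.3) with Benjamini-Hochberg adjustment over all of them, after a test on simulated data. Slides come from the scanner's record. The source names of the OE arrays at 0 mM NaCl share 1 replicate number, so titles were used. Probe loci come from the study's list of differing genes. The genome annotation of the array files is another build than the RefSeq table, so no coordinates are given.

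Same-numbered arrays deviated together from their group means, with correlations of 0.356 to 0.582 between genotypes at 0 mM NaCl, 0.171 to 0.336 at 150 mM, 0.286 to 0.680 between NaCl conditions in OE and 0.358 to 0.487 in TNG67. Unlike-numbered arrays were not compared in this way, so these values cannot show that equal numbers mark pairs. The main fit took no pairs, and the replicate number entered as a block only as an alternative. Because slide 3 holds replicate 2 of every group, number and slide are not separated.

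The gene, the lists and the rule for named genes were chosen with earlier results of these data known. The rule named *OsHOX24*, the 10 probes with the highest r (by gene where a locus was at hand, otherwise at most 2 by probe), the 3 lowest with a locus, and all placed members of a list of up to 6. The locus of 1 root marker was corrected after its values had been seen, since the first assignment was in doubt. Alternatives were an offset of 50, 75th-percentile scaling, the authors' values, no filter, a filter requiring all 12 arrays, slide or replicate as a block, replicates 1 and 3 averaged, the methods' t-test, only the 2 groups compared, and each array left out.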

Additional observations from a re-analysis of the deposited data

How the results depend on the processing

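Both NaCl responses passed in all 11 other settings and in all 12 fits that left out 1 array, with values of 5.001 to 5.98 log2 units in OE and 4.72 to 6.79 in TNG67 over the settings, and 4.92 to 5.85 and 5.18 to 6.38 with an array left out. The difference between TNG67 at 150 mM and OE at 0 mM NaCl passed in all 10 settings (3.55 to 4.81) and all 12 fits (3.24 to 4.44). The genotype difference at 0 mM NaCl passed with the replicate block (1.94, adjusted p = 0.0473 by limma) and on slides 1 and 2 only (1.79, adjusted p = 0.0286), and ran from 1.60 to 2.53 with an array left out. That at 150 mM NaCl passed on slides 1 and 2 only (2.40, adjusted p = 0.00994), ran from 1.07 to 2.27 with an array left out, and was 0.70 with slide as a fixed block. The interaction passed nowhere: it turned to 0.28 with an offset of 50 and 0.61 on slides 1 and 2 only, and ran from −1.06 to 0.33 with an array left out, the 0.33 being without replicate 2 of TNG67 at 150 mM NaCl. The cause was not tested. The setting of slides 1 and 2 only was chosen after seeing the data. In it slide and genotype cannot be told apart, at 0 mM as at 150 mM NaCl. The replicate block changed no other call. Between TNG67 at 150 mM and OE at 0 mM NaCl, same-numbered arrays correlated at 0.283, 0.343 and 0.0864, and the block gave 4.03 and passed. A filter for probes well above background on all 12 arrays leaves *OsHOX24* out and gives no value. Of the 10 most alike probes, 7 were also among the 10 highest in the authors' values, 9 without replicate 2 of TNG67 at 150 mM NaCl and 0 by Spearman's rho. Signals near background limit the TNG67 levels at 0 mM NaCl.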

Other observations

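The 6 nearest tested probes with a locus, 3 on each side of *OsHOX24* by locus number on chromosome 2, had NaCl changes of −0.76 to 0.41 log2 units in OE and −0.92 to 0.15 in TNG67. None of the 6 passed by limma, 2 of them had an unadjusted p under 0.05 in OE and 3 in TNG67, and these counts are near the shares over all tested probes (6.18% higher and 3.64% lower in OE, 4.96% and 3.97% in TNG67, and 38.0% and 36.1% at an unadjusted p under 0.05). At 0 mM NaCl, LOC_Os02g43194, LOC_Os02g43300 and LOC_Os02g43519 were lower in OE, with log2 differences of −1.23, −1.36 and −1.16, as passed for 2.3% of all tested probes. All 6 had an unadjusted p under 0.05 by limma there, against 25.2% of all tested probes. LOC_Os02g43620 went the other way, with a log2 difference of 0.95 that fell short of the fold threshold. The loci come from a list chosen for genotype differences on these samples, so they leave out most genes of the region.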
